A study of Mus musculus with 18 samples.

Results

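The hypothalamus of the mice that ovulated the most oocytes was compared with that of the mice that ovulated the fewest. The comparison rests on 4 of the 18 arrays of the series, chosen by tissue and ovulation class in the sample titles: 2 high-ovulation arrays and 2 low-ovulation arrays, with a control and a transport-stressed mouse on each side. All were female mice of 1 strain, spelled BABL/c in the labels. The 10 pairs of littermates entered the study at 6 weeks of age and were superovulated with hormones at 9 weeks. One mouse of each pair stayed as control, and its littermate was driven for 1000 km, close to 10 h at a mean of 50 km/h, and returned to the laboratory that housed both groups. The control high, control low, stress high and stress low arrays each held RNA of 1 mouse. The labels give no oocyte counts and do not say that the high and the low mouse of a group, or the high mice of both groups, were littermates. The 8 other mice of each group were pooled into 1 array. These 2 pools entered the estimate of spread, the treatment effect and the mean level of a gene, but not the contrast of high and low. Every mouse, controls included, had been superovulated, so no array shows a spontaneous cycle.

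The hypothalamus drives ovulation through neurons that release gonadotropin-releasing hormone (GnRH) to the pituitary, under the control of kisspeptin and neurokinin B cells that read ovarian steroids. Superovulation replaces the pituitary hormones with injected gonadotropins, so the ovary then responds with less dependence on the animal's own GnRH. The hypothalamus also houses the neurons for feeding, stress, milk ejection and sleep, and is bordered by thalamus, choroid plexus, meninges and the pituitary stalk, which a dissection can include.

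Values are log2 signals, so a difference of 1 is a 2-fold change in signal, and every difference below is high minus low. Over all genes the 4 arrays correlated at 0.974 (the stress pair) to 0.988 (the 2 low mice), and the 2 pools at 0.993. The labelled tissue held its defining transcripts: Pmch (melanin-concentrating hormone) read 11.12 to 11.63 in the 4 mice against at most 6.67 in any pituitary or ovary array, and Hcrt (orexin) read 8.01 to 8.32 against at most 5.47. The stress pool stood apart in its ovarian transcripts, with 11.68 for the log2 summed signal of 13 ovary markers, against 10.25 in the control pool and 9.73 to 10.01 in the 4 single mice. Where only 1 mouse stands for a group of a pair, differences between animals and between dissections cannot be told apart from ovulation class. In bulk tissue, fewer cells of a type and less RNA per cell cannot be told apart either.

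Across 22180 genes, 0 (0%) passed an adjusted p of 0.05 in limma's test of high against low with treatment as covariate (Benjamini-Hochberg over all genes; the lowest adjusted p, 0.135, was shared by 483 genes). Unadjusted, 1831 genes were higher in the high mice (8.26%) and 2444 lower (11.0%) at p under 0.05. The count of calls changed with the genes tested: among the 11090 genes at or above the median level, 274 (2.47%) passed as higher and 864 (7.79%) as lower in the same model. With limma's trended and robust prior, 955 of all genes passed, 216 higher and 739 lower, and 840 genes passed in both settings. "Passed with the level filter" below means an adjusted p under 0.05 in limma among those 11090 genes. Both high arrays lay above both low arrays for 5680 genes (25.6%) and below for 5313 (24.0%).

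The control and the stress pair differed in balance. Between the 2 control mice 222 genes were higher by 1 or more in the high mouse (1.0%) and 223 were lower by as much (1.01%). Between the 2 stressed mice 274 were higher (1.24%) and 795 lower (3.58%), and among genes at or above the median level the lower ones made up 91.5% of those past 1, in place of 74.4%. Of the genes lower by 1 or more, 45 were shared, which is 20.2% of the control pair's and 5.66% of the stress pair's. Of those higher by 1 or more, 14 were shared, or 6.31% and 5.11%. Both pairs reached 0.5 upward in 496 genes (2.24%) and downward in 935 (4.22%), and 312 genes (1.41%) passed 0.5 in opposite directions. Without a threshold, 32.5% of all genes were higher and 29.5% lower in both pairs, the background for the both-pair counts of lists below. With 1 array a side, no pair by itself can be tested.

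**Figure D1:**
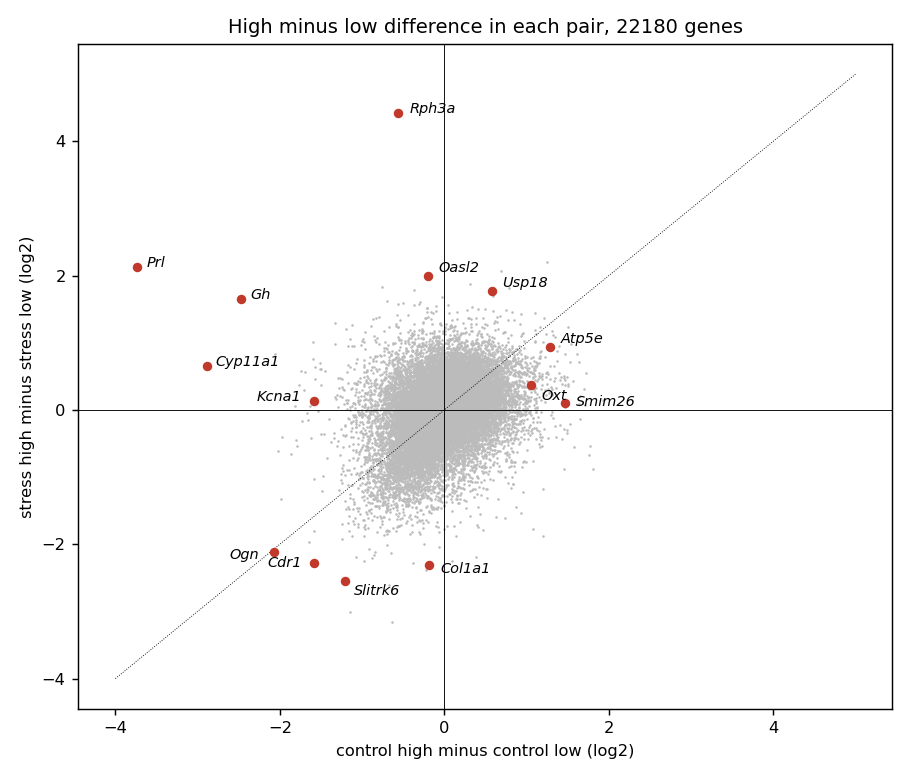
Scatter of the high minus low log2 difference in the control pair (x axis) against the stress pair (y axis), with a grey point for each of 22180 genes, named genes in red and a dotted line of equality. Cdr1 and Ogn lie low in both pairs, Atp5e lies high in both, Rph3a is high only on the stress axis (4.42), and Prl and Gh lie in opposite directions.

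Of the 15 genes lower in the high mice with the smallest p, taken at or above the median level, 5 were zinc finger genes. Ankrd49, an ankyrin repeat gene (transcript cluster 17524087), read 5.89 in the control high and 5.63 in the stress high mouse, against 7.13 in the control low and 7.32 in the stress low mouse. The difference was -1.47 (SE 0.18, limma adjusted p = 0.135), and both high arrays lay below both low ones. The pools, at 6.43 and 6.38, lay between the groups. The Cdr1 cluster (17542034), for a cerebellar degeneration-related neuronal antigen, read 8.12 and 7.41 in the control and stress high mice against 9.70 and 9.69 in the low mice. Its difference, -1.93 (SE 0.25, limma adjusted p = 0.135), had the largest size among the 30 genes named by smallest p, and its pools, at 7.47 and 7.71, sat with the high mice.

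Xist, the noncoding RNA that coats the inactive X chromosome of female cells, read 8.06 and 7.90 in the high mice and 9.12 and 9.36 in the low mice, a difference of -1.26. Syne1, a giant nuclear envelope protein that links the nucleus to the cytoskeleton, read 8.37 and 8.30 against 9.62 and 9.40. Clear separation of the classes was also seen for Spag9, a scaffold of JNK kinase signalling and vesicle transport, which read 8.29 and 8.20 against 9.32 in both low mice. Xkr4, a scramblase-related membrane protein, differed by -1.23, Car13, a carbonic anhydrase, by -1.23, and Ccdc186, a dense-core vesicle protein, by -1.29. Nol8, a nucleolar protein, differed by -1.22 and Mier1, a transcriptional repressor, by -1.24. The zinc finger genes Zfp942, Zfp518a, Zfp960, Zfp760 and Zfp654 differed by -1.33, -1.42, -1.58, -1.48 and -1.32. All 15 genes passed with the level filter (adjusted p = 0.029). The mean of the pools was nearer to the high than to the low mice for 13 of the 15. For the 15 genes chosen alike on the high side it was nearer to the high mice in 6 and to the low mice in 9. Both pools lay between the class means in 7 genes of the low and 9 of the high side. This nearness was not counted over all genes. The choice of these genes required that the arrays did not overlap, so the shared direction of the pairs is fixed by it. They were also picked by smallest p at that level in the same model. Their passing therefore follows from the choice and adds no support.

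**Figure D2:**
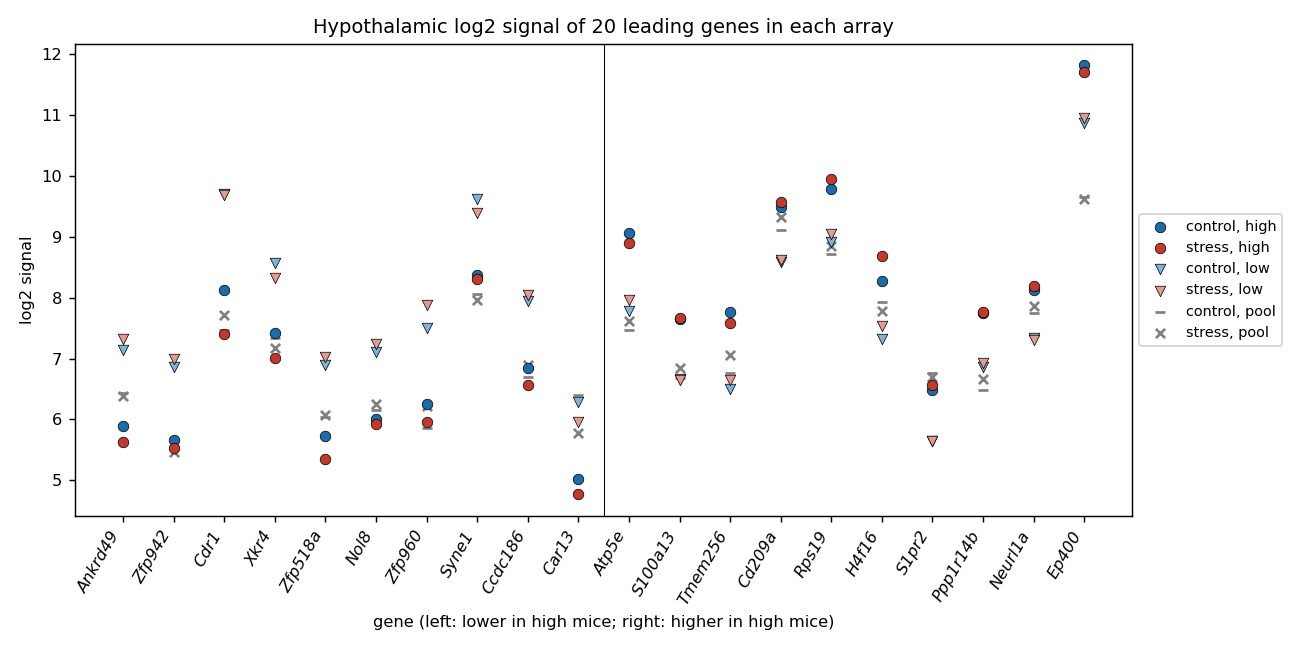
Log2 signal (y axis) of 20 of the genes with the smallest p, the 10 lower and the 10 higher in the high mice (x axis), with circles for high, triangles for low, blue for control, red for stress and grey marks for the pools. High and low arrays do not overlap, which the choice required, and for Ep400 both pools, at 9.65 and 9.62, lie below all 4 single mice.

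Zinc finger genes were lower as a family, which was taken up after its values were seen. The numbered Zfp genes encode mostly DNA-binding proteins, many of which carry a KRAB domain and silence retroelements. Of 370 measured, 169 had both high arrays below both low arrays (45.7%, against 24.0% of all genes) and 66 had both above. Their median was -0.13 in the control pair and -0.31 in the stress pair, where the medians of all genes were -0.01 and 0.05. At an unadjusted p under 0.05, 114 were lower (30.8%, against 11.0% of all genes) and 25 higher (6.76%, against 8.26%). Of 218 at or above the median level 37 passed the filter test as lower (17.0%, against 7.79%) and 3 as higher (1.38%, against 2.47%). In the stress pair 67 differed by -1 or less (18.1%, against 3.58% of all genes). Zfp971 read 4.70 and 3.29 in the control and stress high mice and 5.84 and 6.30 in the low mice, which makes it the family member with the largest drop in the stress pair (-3.02). Many Zfp genes lie in clusters of similar copies, so probes may be shared and the members are not independent. The same 370 genes had medians of 0.04 and -0.02 in the pituitary pairs and 0.07 and 0.04 in the ovary pairs of the same mice.

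Among genes higher in the high mice, the smallest p at or above the median level was that of Atp5e, the epsilon subunit of ATP synthase (cluster 17395165). It read 9.07 and 8.90 in the control and stress high mice against 7.79 and 7.96 in the low mice, and 7.46 and 7.61 in the pools. Its difference was 1.11 (SE 0.17, limma adjusted p = 0.135), and the pools sat below the low mice. The 15 leading genes also held another respiratory gene and a pair of ribosomal protein genes. Ndufb11, a subunit of complex I, read 5.93 and 6.10 against 4.94 and 5.29, with both pools at 5.96. Rps19, a protein of the small ribosomal subunit, read 9.79 and 9.95 against 8.92 and 9.05, and Rpl9, of the large subunit, read 9.11 and 9.44 against 8.21 and 8.71. Ribosomal protein genes and the histone H4 gene H4f16 (difference 1.05) have many near-identical copies, so their signals are uncertain as to the gene.

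The other genes on the high side had varied roles. Tmem256, a small membrane protein, read 7.76 and 7.58 against 6.50 and 6.64 (difference 1.10). S100a13, a calcium-binding protein involved in secretion, read 7.64 and 7.67 against 6.67 and 6.64, and its pools, at 6.68 and 6.85, lay near the low mice. Cd209a, a C-type lectin of dendritic cells, differed by 0.93, and S1pr2, a receptor for sphingosine 1-phosphate, by 0.87, although both pools (6.76 and 6.70) lay above the single mice. Neurl1a, a ubiquitin ligase of neurons, differed by 0.84, Ppp1r14b, a phosphatase inhibitor, by 0.86, Ep400, a chromatin remodeller, by 0.85, and E4f1, a transcription factor, by 0.82. Wbp1 differed by 0.85 and Eif4e3, a cap-binding protein, by 0.91. All 15 passed with the level filter (adjusted p of 0.029 to 0.030), which again follows from their choice by smallest p and adds no support.

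Ribosomal protein genes were mostly higher in the high mice, whereas the fixed list of respiratory genes was divided between the pairs. Of 17 ribosomal protein genes on a list, 11 were above in both pairs without overlap and 1 below (64.7% above, against 25.6% of all genes), with medians of 0.40 in the control and 0.20 in the stress pair. Rpl32 differed by 0.61, Rps3 by 0.58 and Rpl8 by 0.53, and 2 of the 10 list members at or above the median level, Rps19 and Rpl32, passed the filter test. Extended to all 63 Rpl and Rps genes measured, which was done after the values were seen, 43 lay above without overlap and 3 below. Of 41 at or above the median level 8 passed as higher (19.5%, against 2.47% of all genes at that level) and 0 as lower (against 7.79%). Of 20 respiratory chain genes on a list, 7 were higher in both pairs (35.0%, against 32.5% of all genes) and 5 lower, with medians of 0.30 and -0.03. In the stress pair 13 of the 20 were lower, and Cox4i1 (cytochrome oxidase; 0.82 and 0.42) passed the filter test. Over all 73 genes of complexes I, III and IV and ATP synthase, a set also widened after seeing values, 37 lay above (50.7%, against 25.6% of all genes) and 5 below (6.85%, against 24.0%). Of 62 at or above the median level, 14 passed as higher (22.6%, against 2.47%) and 0 as lower (against 7.79%), among them Uqcr11 (1.19 and 0.46) and Uqcrq (1.14 and 0.46) of complex III.

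The difference between high and low mice followed the length of the gene. Over 10629 protein-coding genes whose mean reached the median level, Spearman's rank correlation of the difference with genomic span was -0.408 in the control pair and -0.279 in the stress pair, given as a description because genes are not independent and share these arrays. The shortest 20% of genes (0.297 to 8.69 kb) had medians of 0.20 and 0.18, and the longest (84.0 to 2390 kb) had -0.21 and -0.19. In the shortest group 56.6% of genes were higher in both pairs, and in the longest 15.2%. The same correlation was -0.216 and -0.026 in the pituitary pairs and -0.189 and -0.202 in the ovary pairs. An alternative added after seeing the data took off the median of each of 5 span groups. With it, the medians of the 62 respiratory genes went from 0.46 and 0.15 to 0.28 and 0.03. For the zinc finger and ribosomal genes the check is void, since too few of their members had both a span and that level (58.7% and 63.5%).

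**Figure D3:**
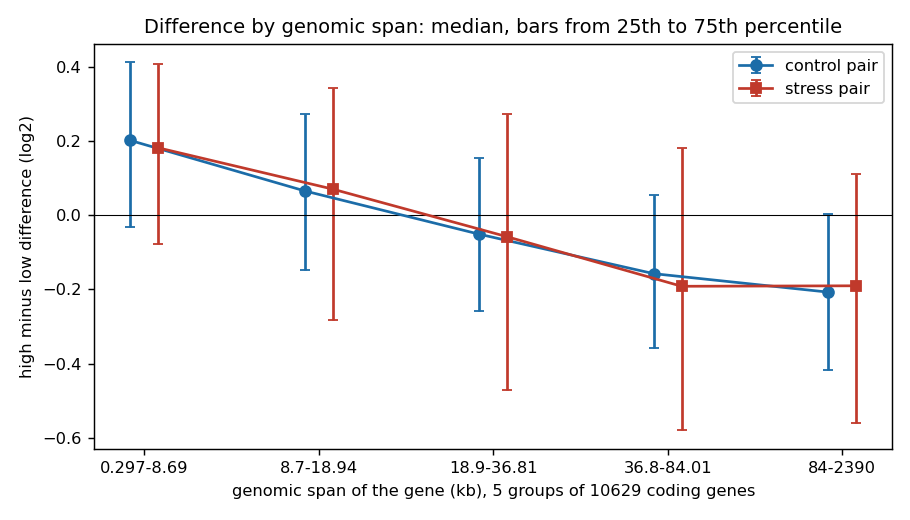
High minus low log2 difference (y axis) by genomic span in kb, in 5 groups of 10629 coding genes (x axis), with the median as a point and bars from the 25th to the 75th percentile, blue for the control and red for the stress pair. Medians go from 0.20 and 0.18 in the shortest genes to -0.21 and -0.19 in the longest.

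Genes of signalling by the fast transmitters GABA and glutamate, a list of receptor subunits, vesicle transporters and synthesis enzymes, were mostly lower in the high mice. Of 21 genes, 15 had both high arrays below both low ones (71.4%, against 24.0% of all genes), 2 lay above, and the medians were -0.46 in the control and -0.48 in the stress pair. At an unadjusted p under 0.05, 11 were lower (52.4%, against 11.0% of all genes) and 1 higher (4.76%, against 8.26%). All 21 were at or above the median level, and 7 passed the filter test as lower (33.3%, against 7.79%) and 0 as higher. The median span of the list was 122.8 kb, and with the span group's median taken off its medians were -0.26 and -0.36 and 12 genes were lower in both pairs in place of 16.

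Gabrg1, a gamma subunit of the GABA-A receptor, read 8.31 in the control high and 8.71 in the stress high mouse against 9.37 and 9.64 in the low mice. Both high arrays lay below both low ones, with the pools (9.32 and 9.21) close to the low mice. Gabra4, an alpha subunit, read 8.47 and 7.36 against 9.46 and 8.99, with pools at 8.54 and 8.66. Gria2, the AMPA receptor subunit that limits calcium entry, read 9.92 and 9.67 against 10.47 and 10.68. Slc17a6, the vesicular glutamate transporter of hypothalamic and thalamic neurons, read 9.92 and 9.66 against 10.61 and 10.63. These 4 passed the filter test (adjusted p of 0.029 to 0.033), as did Gabra2, Gabrb1 and Gria4, which are named after their values were seen. The GABA vesicle transporter Slc32a1 went the other way, with differences of 0.30 and 0.87, and the synthesis enzymes Gad1 (0.64 and -0.25) and Gad2 (-0.10 and -0.22) passed no test.

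Other synaptic genes were mixed. Of 18 presynaptic genes, 5 were higher and 5 lower in both pairs, with Stx1a, a syntaxin of vesicle fusion, higher by 0.61 and 0.73 (passed the filter test) and Sv2b, a vesicle protein, at -0.51 and -0.63. Of 18 postsynaptic scaffold and adhesion genes, 4 were higher and 8 lower in both pairs, and Lrrtm2, an adhesion protein of excitatory synapses, read 8.51 and 7.99 in the high against 9.20 and 9.11 in the low mice (passed the filter test). Caskin1, a synaptic scaffold, was among the largest differences upward in the stress pair, at 1.35 (0.15 in the control pair). Among the largest downward there was Slitrk6, a neuronal adhesion protein of thalamus and inner ear, at -2.54. It was lower in the control pair as well. Slitrk6 read 7.02 and 5.58 in the high and 8.23 and 8.12 in the low mice, and the pools read 7.13 and 7.14, so the stress high mouse stood lowest.

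Markers of some cells around and between the hypothalamic neurons were mostly lower in the high mice. Meningeal fibroblast genes, which mark the sheath of the brain, were lower in both pairs for 18 of 20, and 14 had no overlap (70.0%, against 24.0%). Their median was -0.72 in the control and -0.24 in the stress pair, and the log2 summed signal of the list was 10.36 and 10.43 in the high mice against 11.05 and 11.22 in the low mice. Of 13 members at or above the median level 1, Col1a2, passed the filter test as lower, a share (7.69%) near the 7.79% of all genes at that level. Ogn (osteoglycin), a matrix proteoglycan, read 4.78 and 4.37 in the high against 6.85 and 6.48 in the low mice, a difference of -2.09 (SE 0.23, limma adjusted p = 0.135). Ranbp3l read 5.41 and 4.96 against 6.88 and 5.93. Other members differed in 1 pair: the transporters Slc13a4 and Slc6a20a differed by -1.50 and -1.33 between the control mice and by -0.35 and 0.19 between the stressed mice. Col1a1, the main fibrillar collagen, differed by -0.18 and -2.31, because the stress low mouse read 8.95 where the other 3 read 6.41 to 6.64.

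Markers of thalamus and cortex were lower in both pairs for 16 of 26, but only 6 did not overlap (23.1%, near the 24.0% of all genes). Their medians were -0.22 and -0.47, and the log2 summed signal was 12.60 in the stress high against 12.84 in the stress low mouse, and 13 against 13.15 in the control mice. Prkcd, a kinase of thalamic relay neurons, read 7.91 and 6.14 in the control and stress high mice and 8.99 and 7.75 in the low mice, so the classes overlapped across treatments while the pairs differed by -1.08 and -1.61. Ntng1 (netrin G1), Rora and Rorb (nuclear receptors of thalamus and cortex) passed the filter test, at -1.08, -0.92 and -0.95. Slc17a6 of the glutamate list is a thalamic gene as well, and whether the share of bordering tissue takes part in the difference of that list was not tested. Striatal markers were near 0 in both pairs (12 genes, medians -0.02 and 0.03). Choroid plexus and ependyma markers were higher in both pairs for 7 of 16 (43.8%, against 32.5% of all genes) and lower for 1 (6.25%, against 29.5%). Their medians were 0.17 and 0.20.

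Vessel and glial markers gave smaller or divided shifts. Of 18 endothelial and mural cell genes, 10 were lower and 1 higher in both pairs (medians -0.29 and -0.15), and 5 of 16 passed the filter test as lower (31.2%, against 7.79%). These were the blood-brain barrier transporters Slco1a4 (-1.20), Abcb1a (-0.81) and Slco1c1 (-0.62), the pericyte gene Rgs5 (-0.90) and the angiopoietin receptor Tek (-0.64). The 16 had a median span of 44.4 kb. With the span group's median taken off, their medians went from -0.29 and -0.20 to -0.19 and -0.05, with 8 lower and 1 higher in both pairs. The pan-endothelial genes Cldn5 (0.04 and 0.22) and Pecam1 (-0.17 and -0.18), named after their values were seen, differed little. Among 19 astrocyte and tanycyte genes 4 were higher and 7 lower in both pairs (21.05% and 36.8%, against 32.5% and 29.5% of all genes). Aqp4, the water channel of astrocyte endfeet, read 7.98 and 7.14 against 8.56 and 8.89, and Gja1, their gap junction protein, read 9.42 and 9.12 against 10.00 and 9.96 (both passed the filter test). Dio2, the tanycyte enzyme that activates thyroid hormone, read 4.33 and 4.94 against 6.20 and 5.59. Oligodendrocyte genes split, with 6 of 19 higher and 6 lower in both pairs: Mbp, a myelin protein, differed by 0.60 and Ugt8a, a myelin lipid enzyme, by -0.77, and both passed the filter test. Microglia and macrophage genes were higher in both pairs for 9 of 18 (50.0%, against 32.5% of all genes) and lower for 4 (22.2%, against 29.5%). Their medians were 0.25 and 0.09. Of 13 list genes 0 passed the filter test in limma. Of all 18, 4 were higher at an unadjusted p under 0.05 (22.2%, against 8.26% of all genes). The lower ones numbered 1 (5.56%, against 11.0%). Tyrobp differed by 0.32 and 0.86, while P2ry12 went the other way, at -0.266 and -0.999.

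**Figure D4:**
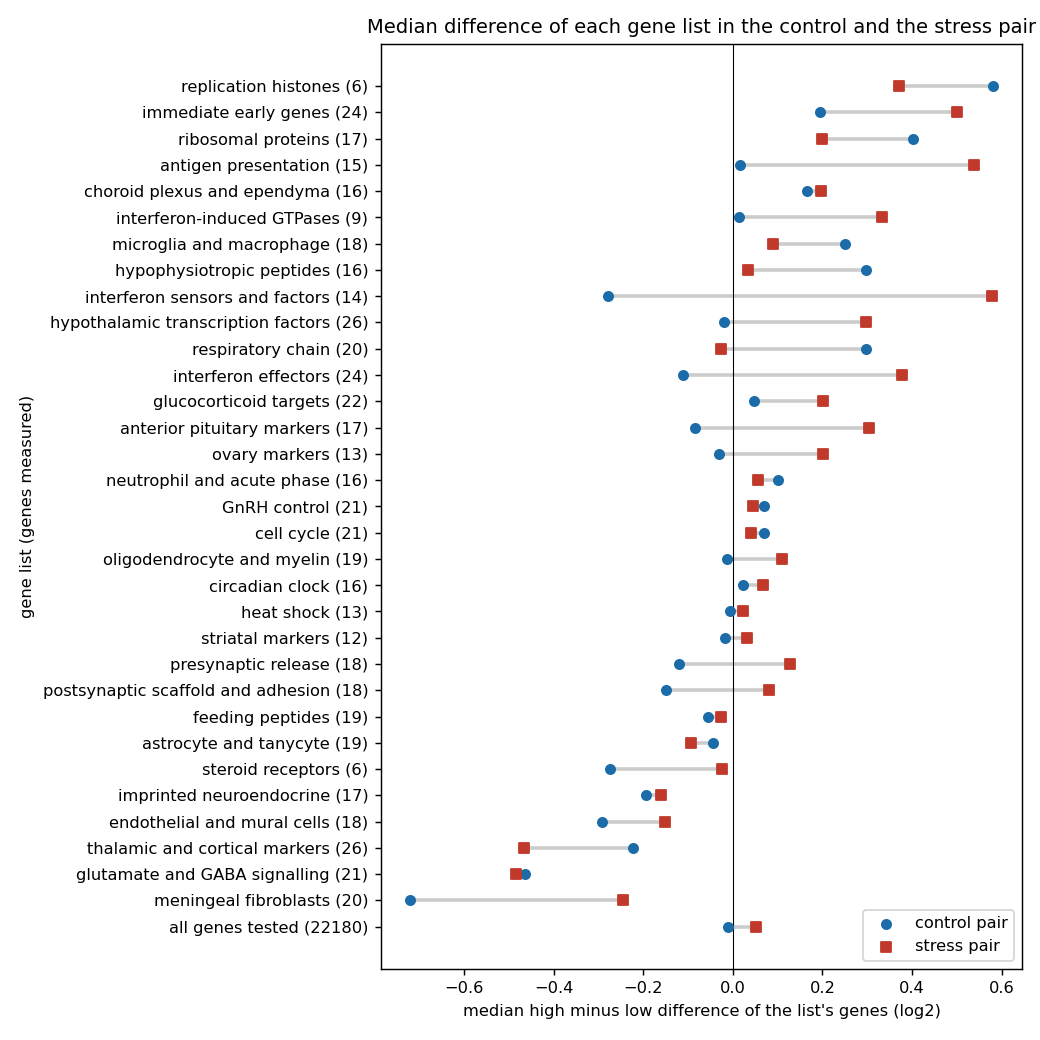
Median high minus low log2 difference (x axis) of each gene list with at least 5 measured genes, number in brackets (y axis), with blue circles for the control pair and red squares for the stress pair. Meningeal genes lie lowest in the control pair (-0.72) and the glutamate and GABA list lowest in the stress pair (-0.48), and the interferon lists are at or below 0.01 in the control pair and at or above 0.33 in the stress pair.

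Genes switched on within minutes of neuronal activity were higher in the high mice, more so in the stress pair. Of 24 immediate early genes, 17 were higher and 3 lower in both pairs, 15 had no overlap (62.5%, against 25.6% of all genes), and the medians were 0.19 and 0.50. Fos, the standard marker of neuronal activation, read 6.71 and 7.27 in the control and stress high mice against 6.23 and 6.26 in the low mice, and 6.89 and 6.53 in the pools. Egr1 read 6.90 and 7.14 against 6.64 and 5.92, so much of its stress difference (1.23) lay in a low reading of the stress low mouse. All 4 single mice read below both pools (7.97 and 7.90). Nr4a1, a nuclear receptor of the same class, read 7.49 and 8.09 against 7.40 and 6.76. Arc (0.65 in each pair) and Btg2 (0.50 and 0.59), named after their values were seen, were the 2 of 17 genes that passed the filter test (11.8%, against 2.47%). At an unadjusted p under 0.05, 9 of 24 were higher (37.5%, against 8.26% of all genes) and 0 lower (against 11.0%). The 17 genes at that level were short, with a median span of 4.26 kb. The shortest span group of all coding genes had medians of 0.20 and 0.18. With the span group's median taken off, the medians of the 17 went from 0.26 and 0.59 to 0.14 and 0.47. Of them, 11 were then higher and 2 lower in both pairs. For the whole list this check is void, since only 70.8% of its members had both a span and that level.

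Interferon response genes were higher in the high mouse of the stress pair, while the control pair lay near 0. Cells that sense virus or interferon switch on these genes through STAT and IRF factors: sensors and factors start and amplify the signal, effectors block virus, and the large GTPases attack intracellular pathogens. Of 47 genes on 3 lists, 37 were higher in the stress high than in the stress low mouse (median 0.44, and 8 at 1 or more, or 17.0% against 1.24% of all genes). In the control pair 18 were higher (median -0.12, with 1 at 1 or more). The difference between the pairs has no residual left to test it. With the level filter 2 of 9 effectors (22.2%) and 1 of 7 sensors and factors (14.3%) passed as higher, against 2.47% of all genes at that level. Of the sensors and factors 1 passed as lower (14.3%, against 7.79%). The trended and robust prior gave 0 genes passing as higher in each of the 3 lists. As lower, it gave 1 of 24 effectors, 1 of 14 sensors and factors and 1 of 9 GTPases.

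Usp18, which trims the ubiquitin-like ISG15 from proteins and damps interferon receptors, read 6.81 in the stress high mouse, 5.04 in the stress low, 5.85 in the control high and 5.27 in the control low mouse. Oasl2, an antiviral protein of the OAS family, read 6.92 in the stress high mouse and 4.92 to 5.75 in the other 3, with the pools at 6.53 and 6.28. Rtp4, a receptor transporter protein induced by interferon, read 7.09 in the stress high mouse against 5.58 to 5.86. Ifi27 read 8.42 against 7.12 to 7.61. In each of these genes the stress high mouse was the highest of the 4. Irf7, the factor that amplifies type I interferon, read 6.79 in that mouse against 5.36 to 5.98, and Irf1 read 6.00 against 4.63 to 5.24. Tlr3, a sensor of double-stranded RNA, was lower in both pairs (-0.49 and -1.02), as did the GTPase Gbp7 (-1.25 and -1.04).

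The same stressed mice differed in the same direction in their other tissues, by more. The 47 genes had a median of 1.22 in the pituitary stress pair (46 higher) and 1.51 in the ovary stress pair (45 higher), against -0.01 and 0.02 in the control pairs. Usp18 differed by 2.65 and 2.67 between the stressed pituitaries and ovaries, and Irf7 by 2.19 and 2.50. The median level of the 47 genes was 5.35 in the stress high hypothalamus, 5.36 in the stress pool and 5.02 to 5.31 in the other 4 hypothalamus arrays. In pituitary and ovary the stress high mouse stood alone, at 8.12 and 8.52, against 6.25 to 6.75 and 6.75 to 7.25 in the other arrays of those tissues. All these values rest on 1 high and 1 low mouse.

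**Figure D5:**
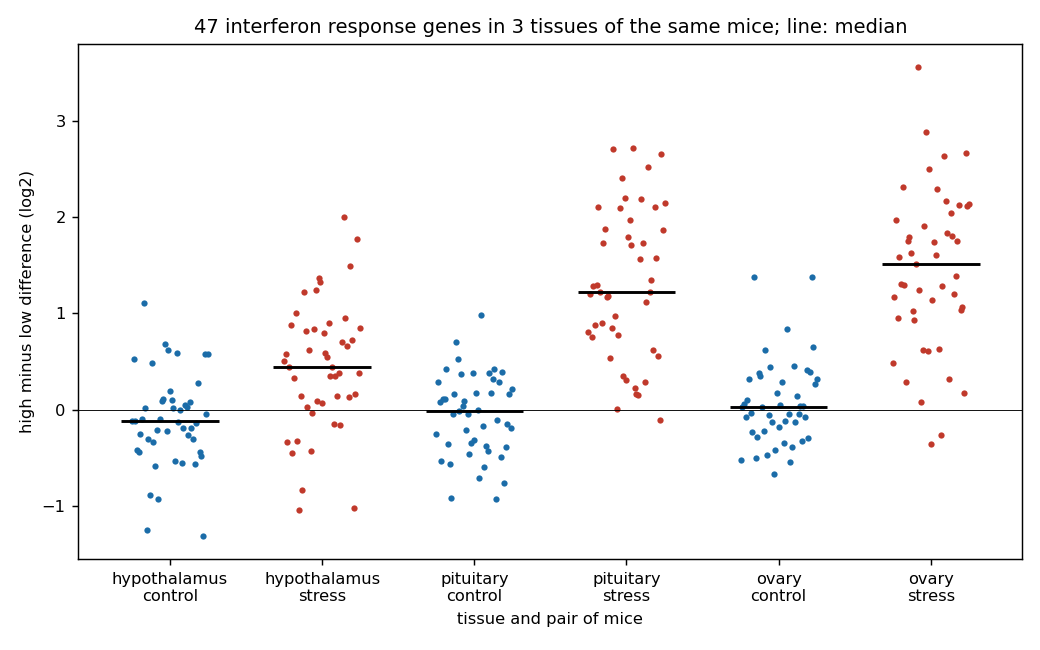
High minus low log2 difference (y axis) of 47 interferon response genes, a point per gene and a line at the median, in the control (blue) and stress (red) pairs of 3 tissues from the same mice (x axis). Stress medians are 0.44, 1.22 and 1.51 in hypothalamus, pituitary and ovary, and control medians lie between -0.12 and 0.02.

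Interferon genes are switched on through a response element to which STAT and IRF factors bind, and its letters can be read in their promoters. The core GAAANNGAA, searched on both strands in the 250 bases before each RefSeq gene start (GRCm38.p6), occurred in 16 of 33 interferon list genes with a promoter in the table (48.5%) and in 8.18% of all 27025 genes with one (7.13% of 32851 windows). List genes without a promoter there, Usp18 and Rtp4 among them, were not searched. Windows of the 3 motif-holding genes with the largest stress difference are shown, on the strand of the gene and with matches in capitals (TTCNNTTTC is the core on the other strand). Igtp, an immunity-related GTPase, has its match 34 bases before the start (chr11:58199306-58199555, plus strand), Gbp5, a guanylate-binding protein, has a match 164 bases before it (chr3:142496684-142496933, plus strand), and Isg15, the ubiquitin-like modifier, has 3 overlapping matches (chr4:156200819-156201068, minus strand).
Igtp: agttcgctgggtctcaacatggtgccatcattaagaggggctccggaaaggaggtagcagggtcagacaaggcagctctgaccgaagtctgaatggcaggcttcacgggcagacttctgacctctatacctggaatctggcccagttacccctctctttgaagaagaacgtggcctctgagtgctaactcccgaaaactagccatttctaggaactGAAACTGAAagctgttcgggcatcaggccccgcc
Gbp5: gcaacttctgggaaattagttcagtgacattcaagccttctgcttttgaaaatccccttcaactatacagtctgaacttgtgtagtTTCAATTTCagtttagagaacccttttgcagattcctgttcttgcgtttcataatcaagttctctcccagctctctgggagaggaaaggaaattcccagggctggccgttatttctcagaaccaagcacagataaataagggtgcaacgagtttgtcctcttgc
Isg15: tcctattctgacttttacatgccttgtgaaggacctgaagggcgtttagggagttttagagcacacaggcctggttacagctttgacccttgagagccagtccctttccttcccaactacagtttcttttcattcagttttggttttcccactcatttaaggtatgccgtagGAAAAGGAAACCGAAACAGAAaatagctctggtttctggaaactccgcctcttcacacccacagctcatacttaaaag
Igtp read 6.68 in the stress high mouse and 5.11 to 5.44 in the other 3. Gbp5 read 4.05 and 4.52 in the control and stress high mice against 2.94 and 3.51 in the low mice, so it was higher in both pairs, at a low level. Isg15 read 4.59 and 4.97 against 4.01 and 4.06. Other promoters with the core belong to genes without such a difference: Gbp7 differed by -1.25 and -1.04 and Trim30a by -1.31 and 0.16.

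Antigen presentation genes, many of them also induced by interferon, had medians of 0.02 in the control and 0.54 in the stress pair (15 genes). H2-K1, a class I heavy chain, differed by -1.17 in the control pair because the control high mouse read 5.62 where the other 3 read 6.79 to 6.97. Genes of this complex are polymorphic and similar to each other, so their signals are uncertain as to the gene. Neutrophil and acute phase genes were low and near 0 in both pairs (16 genes, medians 0.10 and 0.06), and Lcn2 differed by -1.07 and -0.32.

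The largest single difference was that of Rph3a (rabphilin 3A, a vesicle protein of synapses; cluster 17452139), in the stress pair. It read 9.66 in the stress high mouse and 4.90, 5.45 and 5.24 in the control high, control low and stress low mice, a difference of 4.42 between the stressed and -0.56 between the control mice. Both pools read high, at 8.85 and 8.77, so 3 hypothalamus arrays carried the signal and 3 did not. In pituitary and ovary it read 4.60 to 5.72 in every array. Without the control high mouse it was the only gene that passed in limma (difference 4.38, adjusted p = 0.021). That call restates the reading of the 1 high mouse left, which is assumed to vary like the other groups, and adds no support.

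Some pituitary and ovarian transcripts differed widely between the control mice, while the medians of both lists were near 0 there. Prl, prolactin of the pituitary lactotropes, read 5.53 in the control high, 9.26 in the control low, 8.68 in the stress high and 6.55 in the stress low mouse, so its differences were -3.73 and 2.13. Gh, growth hormone, read 5.67, 8.14, 7.81 and 6.15 in the same order (-2.47 and 1.66). In pituitary both read 13.15 or more in every array. Over all 17 anterior pituitary markers the median was -0.09 in the control and 0.30 in the stress pair, with 3 lower and 8 higher in both pairs, and the log2 summed signal was 11.78 and 11.93 in the high mice and 11.87 and 11.33 in the low mice. Whether pituitary tissue takes part in these differences was not tested. Cyp11a1, the enzyme that starts steroid synthesis, read 4.10 in the control high, 6.99 in the control low, 5.59 in the stress high and 4.94 in the stress low mouse, and Star, which delivers its cholesterol, read 3.64, 5.44, 4.49 and 4.94. Over 13 ovary markers the medians were -0.03 and 0.20 and the summed signals 9.73 to 10.01 in the 4 mice.

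Other genes also ran in opposite directions in the pairs. Nts, the peptide neurotensin, read 9.12 and 8.27 in the control high and low mice and 8.17 and 9.00 in the stress high and low mice. Mc4r, the melanocortin receptor that restrains feeding, read 6.09 and 5.27 in the control and 5.02 and 5.80 in the stressed mice. Ly86, a partner of a Toll-like receptor relative on immune cells, differed by 0.95 and -0.85, and Rnaseh2b, a subunit of an enzyme that removes RNA from DNA hybrids, by 0.85 and -0.77. In the joint model these 4 differed by 0.01 to 0.05. Kcna1, a potassium channel of axons, was among the largest differences of the control pair, at -1.58 (0.14 in the stress pair). So were Smim26, a small membrane protein, at 1.47 (0.11) and Pvalb, the calcium buffer parvalbumin of fast-spiking neurons, at 1.26 (0.54). Zfas1, a noncoding RNA, differed by 1.26 (0.31) and Atp5l, of ATP synthase, by 1.28 (0.27).

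No gene of the GnRH system itself passed the test. Gnrh1 read 4.97 and 4.82 in the control and stress high mice and 4.94 and 5.01 in the low mice, below the median gene level (5.63). Its difference was -0.08 with a 95% confidence interval of -0.55 to 0.39, which leaves room for a change of up to 0.55 downward. Kiss1, kisspeptin, read 4.78 and 5.52 against 4.66 and 4.91 (0.36), and its receptor Kiss1r 6.48 and 6.42 against 5.92 and 6.19 (0.39). Tac2, neurokinin B, read 9.36 and 9.11 against 9.35 and 9.47 (-0.17), and its receptor Tacr3 differed by -0.40. Npvf, the gonadotropin-inhibitory peptide, read 6.05 in the control high mouse and 4.97 to 5.21 in the other 3, and 6.64 and 7.12 in the pools. Over the 21 genes of the GnRH list the medians were 0.07 and 0.05. In both pairs 8 were higher (38.1%) and 4 lower (19.05%), against 32.5% and 29.5% of all genes. Of 16 list genes 0 passed the filter test in limma. At an unadjusted p under 0.05, 1 of 21 was higher (4.76%, against 8.26% of all genes) and 0 lower (against 11.0%). The estrogen receptor Esr1 differed by -0.13 and the progesterone receptor Pgr by -0.25.

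Oxt and some feeding peptides were above the low mice in both high mice without passing, while the feeding list as a whole had more members lower. Oxt, made by magnocellular neurons, read 10.04 and 9.89 in the control and stress high mice against 8.98 and 9.52 in the low mice, and 9.38 and 9.19 in the pools. Its difference was 0.71 (SE 0.22, interval 0.18 to 1.24), with no overlap, and the pair differences were 1.05 and 0.37. Npy, the peptide that drives feeding, read 9.60 in both high mice against 9.06 and 9.20, and Cartpt, a peptide that restrains it, read 10.41 and 10.19 against 9.76 and 9.95. Ghrh, growth hormone-releasing hormone, read 6.23 and 6.02 against 5.84 and 5.57. Pomc, the precursor of melanocortins, differed by -0.51 in the control and 0.66 in the stress pair. Avp (0.23), Trh (0.21), Th (0.12), Sst (0.06), Crh (0.03), Pmch (-0.08) and Hcrt (-0.17) differed by less. Of 16 hypophysiotropic genes 6 were higher (37.5%) and 2 lower (12.5%) in both pairs, against 32.5% and 29.5% of all genes. Vgf, a neuropeptide precursor, differed by 0.47 and 1.03 and was the only one of them to pass the filter test (adjusted p = 0.049). Of 19 feeding genes 4 were higher (21.05%) and 8 lower (42.1%) in both pairs, and 0 of 17 passed the filter test in limma. At an unadjusted p under 0.05, 3 of the 19 were higher (15.8%, against 8.26% of all genes) and 1 lower (5.26%, against 11.0%).

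The receptor for glucocorticoids was lower in the high mice. Nr3c1 read 7.68 and 7.50 in the control and stress high mice against 8.38 and 8.28 in the low mice, and 7.87 and 7.79 in the pools, a difference of -0.74 (adjusted p = 0.030 with the level filter). The mineralocorticoid receptor Nr3c2 differed in the control pair (-0.89) and not in the stress pair (-0.02). Glucocorticoid target genes did not move together: of 22, 9 were higher (40.9%) and 4 lower (18.2%) in both pairs, against 32.5% and 29.5% of all genes. Their medians were 0.05 and 0.20. Ddit4, an inhibitor of mTOR signalling, read 7.29 and 7.16 against 6.62 and 6.38 and passed the filter test, while Sgk1, a kinase of salt transport, differed by -0.38 and 0.87.

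Clock genes gave single differences and no shift as a list. Clock, the activator of the circadian loop, read 9.27 and 8.71 in the high against 10.12 and 10.28 in the low mice, a difference of -1.21, and Nr1d2, a repressor in the loop, read 7.41 and 7.40 against 7.91 and 8.20 (both passed the filter test, with Rorb). The medians of 16 clock genes were 0.02 and 0.07. Hypothalamic transcription factors, which give the neuron types their identity, had medians of -0.02 and 0.30 over 26 genes. In both pairs 8 were higher (30.8%) and 3 lower (11.5%), against 32.5% and 29.5% of all genes. Of 20 at or above the median level 0 passed the filter test in limma. At an unadjusted p under 0.05, 2 of 26 were higher (7.69%, near the 8.26% of all genes) and 0 lower (against 11.0%). Of 17 imprinted neuroendocrine genes 6 were higher (35.3%) and 10 lower (58.8%) in both pairs, against 32.5% and 29.5% of all genes. At an unadjusted p under 0.05, 4 of the 17 were higher (23.5%, against 8.26% of all genes) and 4 lower (23.5%, against 11.0%). Rian, a noncoding RNA, was at -0.61 (passed the filter test) and Ube3a, a ubiquitin ligase, at -0.40 and -1.63. Higher in both pairs were Peg10 (0.38 and 0.67), Dlk1 (0.34 and 0.68) and Magel2 (0.20 and 0.78). Cell cycle genes (21 genes, medians 0.07 and 0.04), and heat shock genes (13 genes, -0.01 and 0.02) lay near 0. Of 6 measured replication histone genes 3 were higher and 0 lower in both pairs (medians 0.58 and 0.37).

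The test of whether the high minus low difference of a gene differed between hypothalamus and the other tissues of the same mice gave 0 genes past the threshold for either tissue in limma. The lowest adjusted p was 0.138 against pituitary and 0.095 against ovary, with 3001 genes (13.5%) and 3243 genes (14.6%) at an unadjusted p under 0.05. Zfp40 differed by -1.98 and -1.33 in the hypothalamus pairs, by 1.26 and 0.12 in pituitary and by 0.57 and 0.84 in ovary. The gap between tissues was -2.35 (SE 0.35) against pituitary and -2.36 (SE 0.35) against ovary. Zfp937 (-2.12), Zfp131 (-1.69), Mier1 (-1.51) and Klk1b27, a kallikrein (-2.43), had the other smallest p against pituitary. For Klk1b27 the gap lay in pituitary, where the pairs differed by 1.77 and 2.13. Ankrd49 (-2.01), Gpbp1 (-1.78), Zfp654 (-1.72) and Nol8 (-1.64) had the other smallest p against ovary. Of the 15 leading genes on the low side, 4 were lower and 4 higher in both pituitary pairs, and 3 were lower and 8 higher in both ovary pairs. Of the 15 on the high side, 9 were higher and 0 lower in both pituitary pairs, and 7 were higher and 0 lower in both ovary pairs. Over all genes, 23.8% were higher and 28.4% lower in both pituitary pairs, and 27.1% and 29.0% in both ovary pairs.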

How the data were processed

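Hypothalamus RNA of 4 single mice and 2 pools was hybridised to Affymetrix Mouse Gene 2.0 ST arrays. Per the labels' protocols, 6 ug of Trizol-extracted RNA went into biotin labelling. The deposited values are log2 signals that the authors made with Transcriptome Analysis Console, per the submitters' processing notes. The version of that software and its settings for background, normalization and filtering are not given in the sources used here, and normalization can shift every difference of an array. The base of the logarithm follows from the highest value, 13.66, which exceeds the natural log of a 16-bit reading (11.09).

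Of 41345 transcript clusters, 23521 name 1 gene. The cluster with the highest mean was kept for each gene, which gave 22180 genes. Clusters naming several genes (1814) or none (16010) were left out, and Agrp had no cluster of its own. Entrez identifiers of 23328 clusters matched RefSeq (GRCm38.p6), used for names and genomic span. The array annotation's assembly is not named, so gene coordinates other than RefSeq promoters are not given.

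limma 3.58.1 under R 4.3.3 fitted class (high, low, pool) and treatment on 6 arrays (lmFit, eBayes, 2 residual degrees of freedom, prior degrees of freedom 4.59). p-values are two-sided and were adjusted by Benjamini-Hochberg over all genes, and the median standard error was 0.18. The number of arrays limits the precision. Each single-mouse array comes from a separate mouse, but only 2 mice stand for a class. The pools, which average 8 mice each, enter the estimate of spread, so it can understate the spread between single mice. Differences between tissues used all 18 arrays with the animal as a random block (correlation 0.012). The steps were tested on simulated data. Figures used matplotlib 3.10.9 under Python 3.11.15.

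Genes were named by a rule: the 15 smallest p in each direction without overlap at or above the median level (5.63), the 8 largest differences per pair and direction, 6 opposite genes, a set of peptides and receptors, up to 6 members of each list, and 5 per tissue comparison. Predicted genes, clones, small RNAs, antigen receptor segments and odorant receptors (5085 symbols) were counted but not named. Members, lists and the rule were chosen with earlier results of these data known. Alternatives were the 4 single mice alone, no treatment term, quantile normalization, median centring, a level filter, the mean of a gene's clusters, a trended robust prior, array weights and leaving out each array.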

Additional observations from a re-analysis of the deposited data

Results flagged for a closer look

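Prl and Gh differed by over 1 in opposite directions in the pairs. Prl differed by -3.731 between the control mice and by 2.128 between the stressed mice, and Gh by -2.468 and 1.659, so the control low and the stress high mouse were the ones with the higher signals. With 1 array per class and treatment, this difference between the pairs was not tested. Cyp11a1 read 10.52 in the stress pool, which enters no contrast, against 5.77 in the control pool and 4.10 to 6.99 in the single mice.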

How the results depend on the processing

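The count of 0 genes for high against low became 1138 (274 higher, 864 lower) among genes at or above the median level and 955 with a trended and robust prior. Leaving out each single-mouse array gave 0 to 1 genes, the 1 being Rph3a without the control high mouse, and the remaining alternatives gave 0. At an unadjusted p under 0.05 the count of 4275 ran from 2412 to 5321 on leaving out each array, lowest without the stress low mouse. With the level filter, genes at or past 1 were 124 in the control pair (445 without it) and 634 in the stress pair (1069), and genes at or past 0.5 were 947 in a shared and 43 in opposite directions. The 30 genes with the smallest p had adjusted p of 0.024 to 0.41 over the alternatives; their direction was fixed by their choice, since no array overlapped. Of 144 list medians recomputed under other scalings, 21 moved and 123 did not, and no scaling shifted the median of all genes by over 0.1. Leaving out a pool equals the fit on the single mice, which has 1 residual degree of freedom. No paired analysis was possible because the labels give no replicate numbers, and treatment already enters the model. The number of arrays and low signals, as for Gnrh1 and Kiss1, limit what can be seen.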
